A study of Mus musculus with 12 samples.

Results

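The comparison described here is the genotype by GW4064 interaction in mouse kidney: for each gene, the log2 change with GW4064 in wild-type mice minus the log2 change with GW4064 in mice lacking the farnesoid X receptor (FXR). Genes were included when they reached a TPM (a length-corrected abundance, scaled to the same total in each library) of at least 1 in at least 3 of 12 libraries, which left 14488 of 24532 gene identifiers in the tables. All 12 libraries entered the comparison. Wild-type mice were of strain C57BL/6, and the knockout mice carried the Nr1h4tm1Gonz/J allele, a disruption of the FXR gene in all cells. Each genotype received vehicle or GW4064, a synthetic FXR agonist, and all mice had been fasted overnight. GW4064 tissue was taken at 6 h, while the vehicle labels carry no time, and age, sex, dose and littermate status are not in the labels. Each of the 4 groups held 3 libraries of total RNA from whole kidney, and whether each is its own animal is not stated, so the p-values rest on library-to-library spread, which may be technical. A positive interaction value means a more positive change in wild type than in the knockout, and a negative value the reverse.

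FXR is a nuclear receptor for bile acids. With its partner RXR it binds DNA at inverted repeats of a hexamer spaced by a single base (IR-1 elements) and recruits coactivators when an agonist is bound. In liver and gut it raises bile acid export and lowers bile acid synthesis, and in kidney it is expressed mainly in tubule cells, where the heteromeric exporter OSTalpha-OSTbeta is a known target. A change with the agonist that needs the receptor is seen in wild type and not in the knockout, and the interaction measures that difference directly. It is equally large where both genotypes change in opposite directions, so the within-genotype changes are given beside it throughout.

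Libraries held 2.86 to 4.27 mapped gigabases, and log2 values correlated at 0.982 to 0.988 within groups. Nr1h4, the disrupted gene (chromosome 10), measured 217, 267 and 249 TPM in wild-type vehicle, 189, 206 and 242 in wild-type GW4064, 119.9, 116 and 113 in knockout vehicle and 105, 131 and 134 in knockout GW4064 libraries. All 6 knockout libraries were below all 6 wild-type libraries, and these values cannot separate intact transcripts from disrupted ones. Its own interaction was -0.28 ± 0.15 (SE, log2) and did not pass (limma, Benjamini-Hochberg adjusted p = 0.354). Proximal tubule markers were present in every library at a summed 73114 to 89747 TPM. A score of fat marker genes (mean log2 value) varied within groups and was lowest in wild-type GW4064 replicate 1 (-0.26) and knockout vehicle replicate 2 (0.24), with the other 10 libraries at 0.52 to 2.70. The score was also not balanced over the groups. It was 2.16, 1.99 and 2.3 in wild-type vehicle and -0.26, 2.7 and 0.52 in wild-type GW4064. In the knockout it was 1.83, 0.24 and 2.43 on vehicle and 2.49, 1.07 and 2.44 with GW4064. Of the 82 called genes on the naming list, 46 lost their call with that score as a covariate, 39 without the 2 libraries of lowest score and 48 with either. The covariate shares part of its variation with the tested contrast, so a lost call does not isolate fat content. The 32 whose calls held under every alternative and without any single library were Slc51a, Slc51b, Tm4sf4, Zdhhc19, B4galt5, Tlcd4, Misp3, Slc13a1, Papss2, Tstd2, Slc6a13, Slc5a1, Gm5424, Acot4, Idi1, Nr1i2, Ncoa7, Fgb, C3 and Aifm2 (higher) and Cyp26b1, Slc25a25, Slc38a3, Wsb1, Slc1a5, Snora75, Mir365-2, Abcc4, Srxn1, Gstm1, Ugdh and Gstp1 (lower). Of these 32, Zdhhc19 passed the filter on low values through the wild-type GW4064 libraries alone, so it had to differ and its call is no support. The calls of the called genes on the naming list outside these 32 ended under at least 1 setting.

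GW4064 changed 462 genes differently in the genotypes, 3.19% of those tested, with 249 higher (1.72%) and 213 lower (1.47%) in wild type relative to the knockout (limma, adjusted p under 0.05). The interaction was at least 1 on the log2 scale in 87 of them (53 higher, 34 lower) and at least 2 in 13 (10 higher, 3 lower). The unadjusted p was under 0.05 in 2756 genes (19%). Of the 462, 368 had the larger change in wild type and 94 (0.649% of genes tested) in the knockout. The group whose mean log2 value stood farthest from the mean of the other 3 was wild-type GW4064 for 291 of the called genes (63.0%, against 28.5% of all genes tested), wild-type vehicle for 77 (16.7% against 28.9%), knockout GW4064 for 66 (14.3% against 22.3%) and knockout vehicle for 28 (6.06% against 20.3%). Within a genotype, 696 genes (4.80%) passed in wild type and 2 (0.0138%) in the knockout.

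The change in the knockout was under 25% of that in wild type for 169 called genes, 134 of them higher and 35 lower. Among the 249 higher genes the median change was 0.48 in wild type and -0.11 in the knockout, and among the 213 lower genes it was -0.33 and 0.21. Over all genes tested the medians were -0.03 and 0.02, and the 2 changes, which share no library, correlated at r = -0.09 across genes (14488 genes, which are not independent replicates). Removing 1 library at a time moved the number called by over 1.5 times in 6 cases. The number was 220 and 298 with wild-type GW4064 replicate 1 or 2 removed, and 283 and 257 with wild-type vehicle replicate 1 or 3 removed. Removing knockout vehicle replicate 1 left 224, and removing knockout GW4064 replicate 3 left 272. Adjusting for the fat marker score left 207, and removing the 2 libraries of lowest score left 274. The share of higher genes also moved with scaling, from 53.9% with TPM to 71.0% with median-of-ratios scaling (346 of 487 called).

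**Figure D1:**
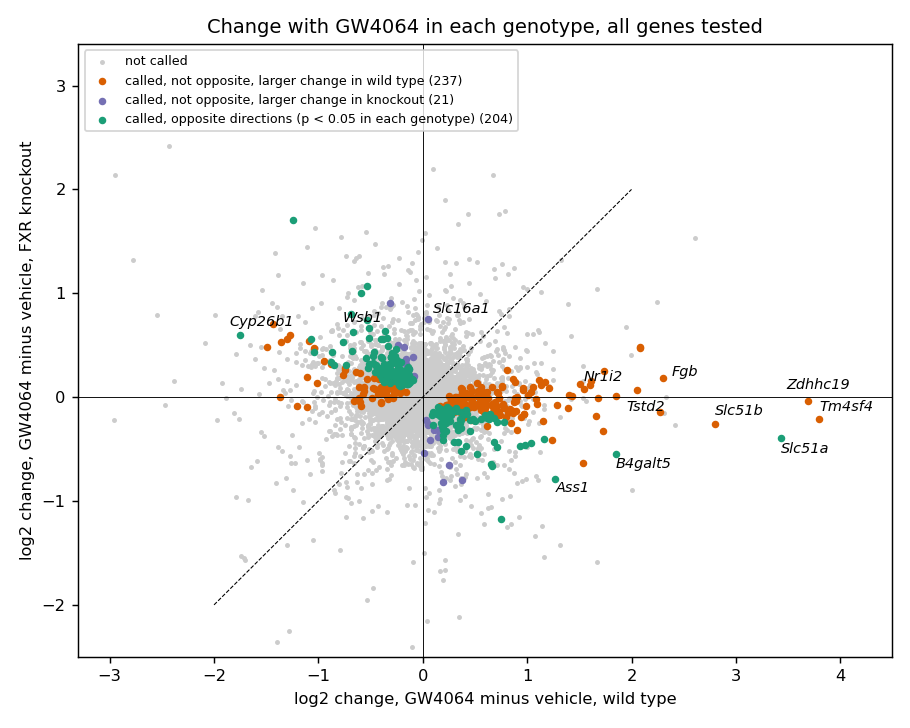
Log2 change with GW4064 in wild type (x axis) against that in the knockout (y axis) for the genes tested, with genes called in the interaction coloured by whether the 2 changes were opposite or larger in one genotype. The largest called changes lie along the x axis near 0 on the y axis, and the opposite-direction genes fill the upper left and lower right quadrants. The dashed line marks equal change, and 4 genes lie outside the axes, 0 of them called.

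The bile acid exporter pair was among the largest receptor-dependent increases. Slc51a encodes OSTalpha, the larger subunit of the basolateral exporter of bile acids and steroid conjugates. It measured 48.1, 41.9 and 36.4 TPM in wild-type vehicle, 514, 427 and 431 in wild-type GW4064, 34.3, 41.5 and 46.5 in knockout vehicle and 28.6, 33.2 and 30.1 in knockout GW4064 libraries. The GW4064 libraries were all above the vehicle libraries in wild type and all below them in the knockout. The interaction was 3.83 ± 0.17 (SE, log2; limma adjusted p = 1.33e-06, n = 3 per group), made of 3.43 in wild type and -0.40 ± 0.12 in the knockout (adjusted p = 0.28). Slc51b encodes OSTbeta, the subunit that OSTalpha needs to reach the membrane. Its values were 56.9, 45.9 and 44.9 TPM in wild-type vehicle and 382, 349.5 and 303 in wild-type GW4064, against 60.6, 65.1 and 55.3 in knockout vehicle and 45.4, 61.3 and 46 in knockout GW4064. Here the knockout groups overlapped, and the interaction was 3.05 ± 0.18 (adjusted p = 1.0e-05, limma).

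Zdhhc19, a palmitoyltransferase gene otherwise best known from testis, lies next to Slc51a on chromosome 16 in the opposite orientation, with 8401 bases between the 5′ ends of both genes. It was listed at 0.135, 0 and 0 TPM in wild-type vehicle and at 7.57, 6.09 and 5.87 in wild-type GW4064, with 0 to 0.371 TPM in the 6 knockout libraries. The 3 wild-type GW4064 libraries stood above all others. Zdhhc19 passed the filter on low values through these 3 libraries alone, as did 4 called genes in all, so it had to differ and its values are given without a test. Promoter windows are shown for the genes of largest increase and for Cyp26b1, the decrease described further on, each from 250 bases before to 50 bases after the start (RefSeq, GRCm38.p6, the assembly also called mm10). Capitals mark the FXR hexamer AGGTCA or its reverse complement TGACCT. The windows are chr16:32487830-32488129 (minus strand) for Slc51a, chr16:32496031-32496330 (plus strand) for Zdhhc19, chr9:65422724-65423023 (minus strand) for Slc51b, chr3:57425160-57425459 (plus strand) for Tm4sf4, chr2:167349129-167349428 (minus strand) for B4galt5 and chr6:84593761-84594060 (minus strand) for Cyp26b1.
Slc51a: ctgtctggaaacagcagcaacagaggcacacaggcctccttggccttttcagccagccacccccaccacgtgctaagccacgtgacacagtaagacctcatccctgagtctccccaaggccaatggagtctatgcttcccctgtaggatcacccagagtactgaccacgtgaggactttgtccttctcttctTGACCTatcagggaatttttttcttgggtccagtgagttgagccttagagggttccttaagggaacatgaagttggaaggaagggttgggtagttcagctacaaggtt
Zdhhc19: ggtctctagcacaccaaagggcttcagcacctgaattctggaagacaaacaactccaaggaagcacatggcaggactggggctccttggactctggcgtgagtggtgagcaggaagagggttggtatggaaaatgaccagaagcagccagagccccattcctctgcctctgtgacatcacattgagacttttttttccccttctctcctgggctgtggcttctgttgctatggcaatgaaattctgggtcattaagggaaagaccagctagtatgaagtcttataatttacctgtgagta
Slc51b: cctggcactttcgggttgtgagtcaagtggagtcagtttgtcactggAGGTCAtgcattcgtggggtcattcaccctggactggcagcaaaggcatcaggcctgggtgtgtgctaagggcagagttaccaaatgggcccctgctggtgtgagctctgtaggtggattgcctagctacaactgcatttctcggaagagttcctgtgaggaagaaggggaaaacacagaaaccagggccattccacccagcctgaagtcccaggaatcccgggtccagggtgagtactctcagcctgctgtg
Tm4sf4: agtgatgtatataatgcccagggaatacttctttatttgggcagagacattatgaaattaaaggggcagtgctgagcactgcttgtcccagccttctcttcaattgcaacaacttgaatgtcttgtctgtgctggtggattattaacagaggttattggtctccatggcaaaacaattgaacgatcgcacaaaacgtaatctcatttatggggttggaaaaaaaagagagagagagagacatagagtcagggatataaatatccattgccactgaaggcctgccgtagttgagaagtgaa
B4galt5: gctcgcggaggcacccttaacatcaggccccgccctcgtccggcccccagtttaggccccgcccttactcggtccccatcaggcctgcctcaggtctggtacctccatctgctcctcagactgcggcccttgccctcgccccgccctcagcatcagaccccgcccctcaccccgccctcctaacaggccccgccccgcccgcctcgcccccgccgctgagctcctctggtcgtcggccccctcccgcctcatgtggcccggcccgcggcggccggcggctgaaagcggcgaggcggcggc
Cyp26b1: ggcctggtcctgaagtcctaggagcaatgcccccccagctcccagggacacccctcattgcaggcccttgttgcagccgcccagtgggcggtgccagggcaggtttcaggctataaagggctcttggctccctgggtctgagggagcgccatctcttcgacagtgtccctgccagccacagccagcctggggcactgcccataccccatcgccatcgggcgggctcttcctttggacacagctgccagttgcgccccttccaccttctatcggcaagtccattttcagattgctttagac
Slc51a and Slc51b each held a single hexamer, with its first base at position -58 and -203 from the start, and the other 4 windows held none. The IR-1 element (AGGTCA, any base, TGACCT, both strands, up to 2 mismatches outside the free base) was not found in these 6 windows, which says only that these letters are not in them.

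Genes of membrane proteins and glycolipid synthesis followed. Tm4sf4, the gene of a membrane protein, measured 1.61, 0.981 and 1.52 TPM in wild-type vehicle and 35.1, 25.2 and 18 in wild-type GW4064, while the 6 knockout libraries stayed between 0.49 and 1.62. It had an interaction of 4.01 ± 0.44 (limma adjusted p = 8.65e-04), the largest of all called genes. B4galt5, which makes lactosylceramide, the entry point of most glycosphingolipids, measured 34.5, 32.8 and 34.4 TPM in wild-type vehicle and 129.8, 115 and 125 in wild-type GW4064. In the knockout it measured 33.4, 29.9 and 32.7 TPM on vehicle and 18.3, 26 and 21.6 with GW4064, so the groups separated in opposite directions in the genotypes. The interaction was 2.39 ± 0.14 (adjusted p = 1.0e-05, limma), with 1.85 in wild type and -0.54 ± 0.10 in the knockout (adjusted p = 0.13). Of 25 glycosphingolipid and galactosyl transfer genes, B4galt5 was called higher and A4galt, the globotriaosylceramide synthase, lower (-0.63 ± 0.13, adjusted p = 0.0264, limma), against 1.72% and 1.47% of all genes, with a list median of 0.06 against -0.05 over all genes. The A4galt call ended without any of 5 libraries (adjusted p up to 0.0671) and with the fat marker covariate (0.0975, limma).

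Nr1i2 encodes the pregnane X receptor, a sensor of steroids and drugs. It measured 7.9, 8.01 and 7.84 TPM in wild-type vehicle, 26.1, 27.2 and 19.4 in wild-type GW4064, 11.6, 14.5 and 11.9 in knockout vehicle and 11.8, 14.6 and 13.6 in knockout GW4064 libraries. Both knockout groups lay between the wild-type groups, and the interaction was 1.47 ± 0.18 (limma adjusted p = 0.0017). Of 31 nuclear receptor and corepressor genes tested, 2 were higher (Nr1i2 among them) and 2 lower (Rarb and Rarg), against 1.72% and 1.47% of all genes, with a median of -0.03. Nr0b2 (SHP), the corepressor that FXR induces in liver, was at 1.3 to 3.61 TPM over the 12 libraries, with an interaction of 0.07 ± 0.30 (95% interval -0.59 to 0.73, adjusted p = 0.932, limma). Of 43 genes on a list of FXR targets known mainly from liver and gut, 33 passed the filter, 4 were higher (Slc51a, Slc51b, Fgb and C3) and 1 lower (Kng1), against 1.72% and 1.47% of all genes tested, and the median was 0.02.

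Plasma protein genes were among the increases at low levels. Fgb, the fibrinogen beta chain, measured 1.65, 2.11 and 1.97 TPM in wild-type vehicle and 13.7, 12.3 and 8.61 in wild-type GW4064, and 0.641 to 1.28 in the knockout libraries (interaction 2.12 ± 0.31, limma adjusted p = 0.00458). Complement C3 measured 9.84, 10.4 and 11.4 TPM in wild-type vehicle and 39.3, 47.3 and 22.8 in wild-type GW4064, and 8.81 to 10.5 in the knockout libraries (1.69 ± 0.29, adjusted p = 0.01). Kng1, the kininogen gene, had the reverse sign (-2.14 ± 0.52, adjusted p = 0.0496, limma), and this call ended without any of 9 libraries and with the fat marker covariate (adjusted p = 0.0642, limma). Of 32 plasma protein genes tested, 2 were higher (Fgb and C3) and 2 lower (Kng1 and the ferroxidase ceruloplasmin, Cp, a call that ended without any of 10 libraries), against 1.72% and 1.47% of all genes, so the list had no common direction (median -0.01). Hepatocyte and pancreas markers on a list of 14 were at a summed 109.41 to 157.14 TPM, with 7 pancreas genes at 0 in all libraries.

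Tstd2, a gene with a thiosulfate sulfurtransferase domain, measured 23, 26.5 and 29.1 TPM in wild-type vehicle and 126, 107 and 98.4 in wild-type GW4064, and 24.1 to 27.4 in all 6 knockout libraries (interaction 1.99 ± 0.14, limma adjusted p = 3.3e-05). Slc13a1, the apical sodium-sulfate cotransporter that reclaims sulfate in the proximal tubule, measured 431, 478 and 483 TPM in wild-type vehicle and 1345, 1165 and 1142 in wild-type GW4064, and 535 to 668 in the knockout libraries. All 3 wild-type GW4064 libraries were above the other 9, with an interaction of 1.49 ± 0.11 (limma adjusted p = 6.47e-05). Papss2, chosen after its values were seen, encodes the enzyme that turns sulfate into the active donor PAPS. It measured 325, 362 and 371 TPM in wild-type vehicle and 556, 538 and 514 in wild-type GW4064, and 318 to 353 in the knockout libraries (0.68 ± 0.08, adjusted p = 9.29e-04).

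**Figure D2:**
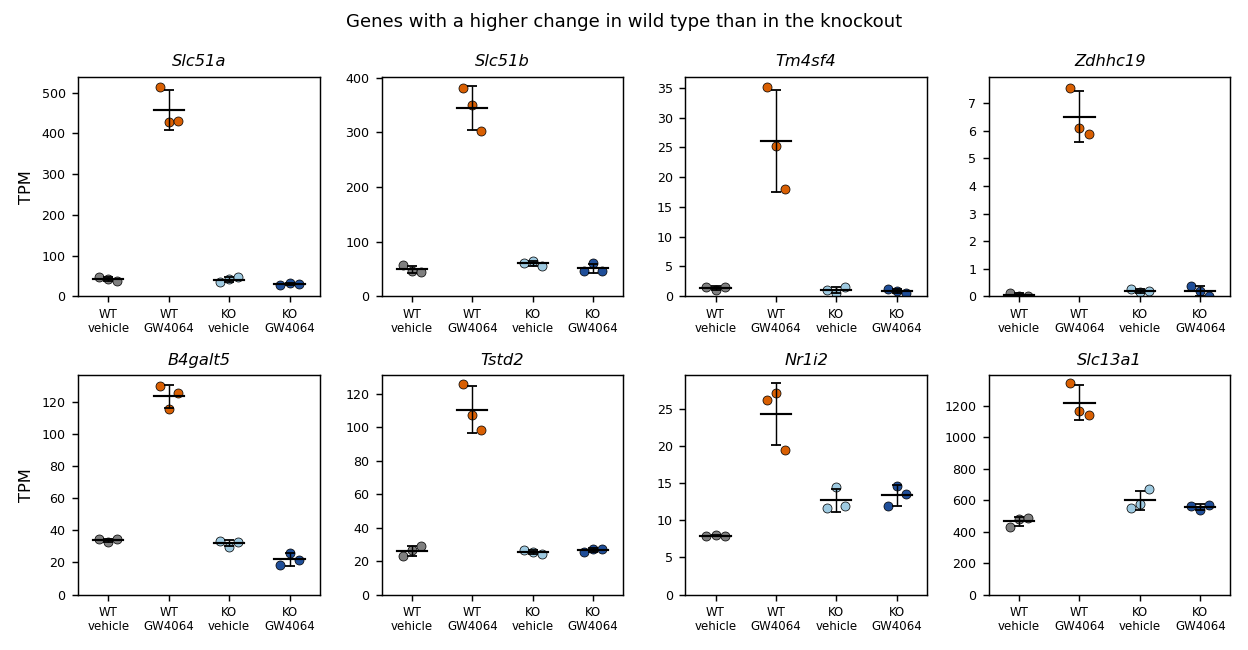
TPM in each of the 12 libraries (points) for 8 genes with a positive interaction, by genotype and treatment, with the group mean (line) and SD (error bar) of 3 libraries, on linear axes from 0. The 3 wild-type GW4064 libraries lie above the other 9 in all 8 panels.

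Solute carriers of the tubule divided by direction. Of 39 tested, 5 were higher and 7 lower, against 1.72% and 1.47% of all genes, and the list median was 0.06. The higher members were Slc13a1, the GABA and betaine carrier Slc6a13 (0.81 ± 0.08), the sodium-glucose cotransporter SGLT1, Slc5a1 (0.53 ± 0.08), the glucose transporter GLUT2, Slc2a2 (0.72 ± 0.14), and the basolateral cationic amino acid carrier subunit Slc7a7 (0.56 ± 0.11), each with an adjusted p of 0.02 or lower (limma). Slc6a13 measured 100.4, 108 and 104 TPM in wild-type vehicle and 165, 168 and 157 in wild-type GW4064, against 99.2, 106 and 91.9 in knockout vehicle and 88.5, 85.1 and 91.6 in knockout GW4064. Its groups were separate in both genotypes, upward in wild type and downward in the knockout. Slc7a7 and Slc2a2 lost their calls without any of 3 and 4 libraries, wild-type GW4064 replicate 1 among them for both (adjusted p = 0.0594 for each), and Slc7a7 also with the fat marker covariate (0.0728, limma).

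The lower carriers included mitochondrial and gluconeogenic ones. Slc25a25, a calcium-dependent ATP-magnesium/phosphate carrier of mitochondria, measured 262, 313 and 297 TPM in wild-type vehicle, 83.6, 142 and 120.1 in wild-type GW4064, 212, 338 and 217 in knockout vehicle and 254, 466 and 398 in knockout GW4064 libraries. The wild-type groups did not overlap and the knockout groups did, and the interaction was -1.89 ± 0.35 (limma adjusted p = 0.0154). Slc38a3, the glutamine carrier SNAT3, measured 51, 54.5 and 66.3 TPM in wild-type vehicle and 29.1, 34.8 and 29 in wild-type GW4064, against 67, 110.0 and 82.8 in knockout vehicle and 95.6, 117 and 136 in knockout GW4064. Its interaction was -1.31 ± 0.25 (adjusted p = 0.0169). Slc13a2, the apical citrate and dicarboxylate transporter, fell in wild type (67.4 ± 2.86 to 26.3 ± 6.33 TPM, SD, n = 3) and was at 38.9 ± 7.73 and 38.7 ± 5.71 TPM in the knockout. Its interaction was -1.37 ± 0.26 (limma adjusted p = 0.0171), and 0.0636 with the fat marker covariate. The remaining lower members were Slc16a1, described further on, the amino acid exchanger subunit Slc7a8, the fructose transporter Slc2a5 and the mitochondrial dicarboxylate carrier Slc25a10, and the calls of the last 3 ended without any of 6, 6 and 9 libraries and with the fat marker covariate (adjusted p = 0.0904, 0.097 and 0.102, limma).

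Of 19 gluconeogenesis genes tested, 5 were lower and 0 higher, against 1.47% and 1.72% of all genes, while the median of the list was 0.03, so the members outside these 5 did not share the direction. Besides Slc25a25, Slc13a2 and Slc16a1, carriers of substrates rather than enzymes of the pathway, the called members included Pck1 (PEPCK, the committed step). Pck1 measured 7146, 8548 and 7411 TPM in wild-type vehicle, 2906, 4428 and 3511 in wild-type GW4064, 5323, 8441 and 5835 in knockout vehicle and 5908, 8128 and 8098 in knockout GW4064 libraries. Only the wild-type groups were separate. The interaction was -1.30 ± 0.27 (adjusted p = 0.0264), and the call ended without any of 7 libraries and with the fat marker covariate (adjusted p = 0.0792, limma). Pck1 is expressed in fat as well and stands on the proximal tubule list used here, and which cells its values come from was not tested.

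Cyp26b1, which degrades retinoic acid, had the most negative interaction of the 32 named genes called in every alternative. It measured 5.68, 5.45 and 5.87 TPM in wild-type vehicle, 0.936, 1.72 and 1.44 in wild-type GW4064, 12.2, 9.2 and 12.4 in knockout vehicle and 21.6, 12.7 and 18.5 in knockout GW4064 libraries. The 4 groups did not overlap, in the order wild-type GW4064, wild-type vehicle, knockout vehicle, knockout GW4064. The interaction was -2.35 ± 0.29 (limma adjusted p = 0.00168), made of -1.75 ± 0.20 in wild type and 0.60 ± 0.20 in the knockout (95% interval 0.16 to 1.04, adjusted p = 0.31). Of 18 retinoid genes tested, 3 were lower and 0 higher, against 1.47% and 1.72% of all genes, with a median of -0.08. The other two were the retinoic acid receptors Rarb (-0.77 ± 0.16) and Rarg (-0.53 ± 0.12), with changes of opposite sign in the genotypes, and their calls ended without any of 8 and 10 libraries (limma adjusted p up to 0.0758 and 0.107) and with the fat marker covariate (0.0874 and 0.132).

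Called genes were also sorted by whether their changes had opposite signs in the genotypes. A gene was counted as opposite when it was called in the interaction, had an unadjusted p under 0.05 within each genotype and had changes of opposite sign. There were 204 such genes, 1.41% of those tested and 44.2% of those called, with 76 positive in wild type and negative in the knockout and 128 the other way round. None of the 204 passed in the knockout by itself after adjustment and 100 passed in wild type (limma), so the knockout side rests on unadjusted p-values. Regardless of p, the 2 changes had opposite signs in 397 called genes (85.9%), against 55.9% of all genes tested. The interaction contrast favours opposite signs by its construction, so the excess among called genes follows from how they were selected. Opposite signs were therefore also counted without the contrast. Over all genes tested, 319 (2.20%) had an unadjusted p under 0.05 in each genotype with opposite signs and 155 (1.07%) with the same sign. In 407 genes (2.81%) the libraries of the 2 treatments did not overlap in either genotype and lay in opposite orders, 187 of them called. The 204 became 87 with the fat marker covariate and 266 without knockout GW4064 replicate 2. They became 111 or 97 without wild-type vehicle replicate 1 or 3, 91 or 127 without wild-type GW4064 replicate 1 or 2, and 74 without knockout vehicle replicate 1. They became 96 with knockout GW4064 replicate 3 removed.

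Ass1, the argininosuccinate synthase of arginine synthesis, was an opposite-direction gene whose reads are split between annotations. Its locus on chromosome 2 also carries Gm5424 (chromosome 2, 31470308 to 31520629, annotated as a transcribed pseudogene), and only 0.193% to 0.383% of the summed TPM of the pair was listed under Ass1, so the entries cannot be separated here. Gm5424, chosen after its values were seen, measured 2114, 2087 and 1934 TPM in wild-type vehicle, 4374, 3859 and 3839.9 in wild-type GW4064, 2540.3, 2459.6 and 2448 in knockout vehicle and 1577, 2155 and 1714 in knockout GW4064 libraries. Each treated library was above its vehicle group in wild type and below it in the knockout. The summed mean of the pair went from 2051 ± 98.9 to 4039 ± 304 TPM in wild type and from 2491 ± 48.9 to 1820 ± 302 TPM in the knockout (SD, n = 3). The interaction was 1.44 ± 0.14 for Gm5424 (adjusted p = 2.98e-04) and 2.06 ± 0.35 for Ass1 (adjusted p = 0.0102, and 0.0605 without the 2 libraries of lowest fat score, limma).

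Wsb1, a substrate-recognition subunit of a ubiquitin ligase, showed the reverse order. It measured 129, 122 and 123 TPM in wild-type vehicle, 73.3, 89.6 and 73.5 in wild-type GW4064, 109, 125 and 119 in knockout vehicle and 147, 201 and 202 in knockout GW4064 libraries. The vehicle groups overlapped and the GW4064 groups lay on either side of them, with an interaction of -1.29 ± 0.16 (limma adjusted p = 0.00219). Sgk1, the aldosterone- and glucocorticoid-induced kinase, moved toward the middle instead. Its libraries were at 173, 169.6 and 116 TPM in wild-type vehicle, 275, 216 and 226 in wild-type GW4064, 441, 431 and 515 in knockout vehicle and 374, 303 and 225 in knockout GW4064, so the vehicle groups differed most. The interaction of Sgk1 was 1.30 ± 0.26 (adjusted p = 0.0229) and lost its call without wild-type GW4064 replicate 1, knockout vehicle replicate 1 or knockout vehicle replicate 3 (adjusted p up to 0.0659) and with the fat marker covariate (0.0815, limma). Cyp24a1, the vitamin D 24-hydroxylase, had the same arrangement, with 55.3 ± 30.9 and 146 ± 44.3 TPM in wild type and 300.1 ± 8.84 and 193 ± 19.4 TPM in the knockout (SD, n = 3). Its knockout change of -0.64 had an unadjusted p of 0.109 (limma), so Cyp24a1 was not counted as an opposite-direction gene. The call on its interaction of 2.17 ± 0.52 (adjusted p = 0.0463, limma) ended without any of 10 libraries. Of 23 vitamin D and calcium-phosphate genes, 3 were higher (Cyp24a1, the phosphate cotransporter Slc34a3 and the vitamin D endocytosis receptor cubilin, Cubn) and 2 lower (Fgfr1 and Slc20a2), against 1.72% and 1.47% of all genes. The calls of Cubn, Fgfr1 and Slc20a2 ended without any of 6, 7 and 9 libraries, and that of Slc34a3 with the fat marker covariate (adjusted p = 0.0636, limma).

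**Figure D3:**
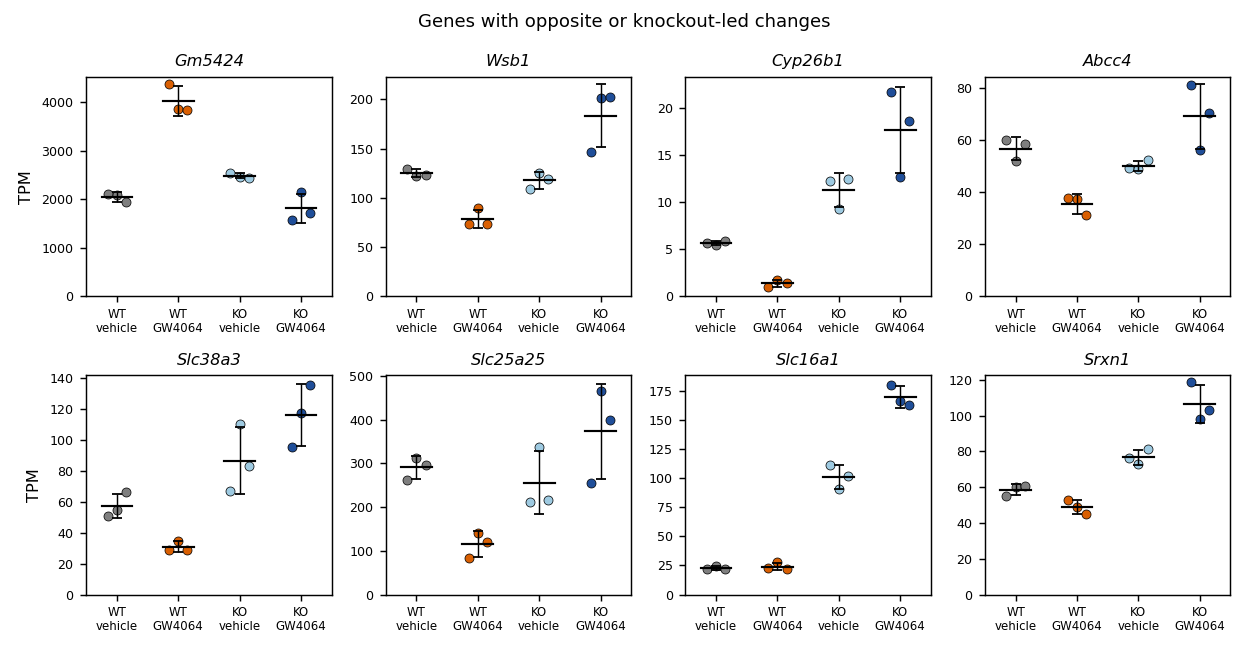
TPM in each of the 12 libraries (points) for 8 genes, by genotype and treatment, with the group mean (line) and SD (error bar) of 3 libraries, on linear axes from 0. All but Slc25a25 had opposite or knockout-led changes as defined in the text. The knockout change of Slc25a25 had an unadjusted p of 0.052 (limma). Gm5424 is high in wild-type GW4064 and low in knockout GW4064, and Wsb1, Cyp26b1 and Abcc4 show the reverse order.

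Targets of NRF2, the transcription factor that KEAP1 releases under oxidative or electrophilic stress, were tested as a further list. Of 38 tested, 10 were lower and 0 higher, against 1.47% and 1.72% of all genes, and 9 of the 38 were opposite-direction genes, against 1.41% of all genes. The list median was -0.39 (-0.11 in wild type and 0.27 in the knockout), against -0.05 over all genes. Regardless of p, 25 of the 38 were down in wild type and up in the knockout, and 3 the reverse. Over all genes tested, 55.9% had opposite signs in either order, and the share for each order was not counted. The list was written with the earlier text on these data known, which already described these genes in the knockout, so its direction is not independent evidence. The number of lower members was 6 to 15 when single libraries were left out, 5 with the fat marker covariate and 6 without the 2 libraries of lowest score, and the median stayed between -0.46 and -0.34 in all alternatives.

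Abcc4, the multidrug pump MRP4 that exports conjugates and cyclic nucleotides, had the largest interaction of the called NRF2 members. It measured 59.8, 51.7 and 58.4 TPM in wild-type vehicle, 37.8, 37.2 and 31 in wild-type GW4064, 49.3, 48.7 and 52.3 in knockout vehicle and 81, 56.2 and 70.1 in knockout GW4064 libraries. The groups were separate in both genotypes (interaction -1.12 ± 0.17, limma adjusted p = 0.00492). Srxn1, sulfiredoxin, which repairs overoxidised peroxiredoxins, measured 55.1, 60.1 and 60.4 TPM in wild-type vehicle and 52.7, 48.7 and 45.2 in wild-type GW4064, against 76.5, 73 and 81.3 in knockout vehicle and 119, 98.1 and 103 in knockout GW4064 (-0.72 ± 0.11, adjusted p = 0.00532). Its wild-type change of -0.26 ± 0.08 did not pass by itself (adjusted p = 0.089). Glutathione transferases Gstm1 (-0.64 ± 0.11) and Gstp1 (-0.54 ± 0.08), and Ugdh (-0.63 ± 0.08), which makes UDP-glucuronate for conjugation, had adjusted p of 0.00941, 0.00512 and 0.00168 (limma). The remaining called members were the pentose phosphate enzymes Pgd (-0.61 ± 0.13) and Tkt (-0.39 ± 0.07), thioredoxin reductase Txnrd1 (-0.38 ± 0.09), epoxide hydrolase Ephx1 (-0.66 ± 0.15) and carbonyl reductase Cbr1 (-0.61 ± 0.14). The calls of Txnrd1, Ephx1, Cbr1 and Pgd ended without any of 10, 7, 9 and 6 libraries, and that of Tkt with the fat marker covariate (adjusted p = 0.0662, limma). Members with the reverse sign included Osgin1, which is also a reported FXR target. It measured 34.4, 37.1 and 44.8 TPM in wild-type vehicle and 155, 127 and 71.8 in wild-type GW4064, against 26.5 to 47.7 in the knockout (1.54 ± 0.39, adjusted p = 0.0573), and it passed in 4 alternatives and without any of 3 libraries.

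**Figure D4:**
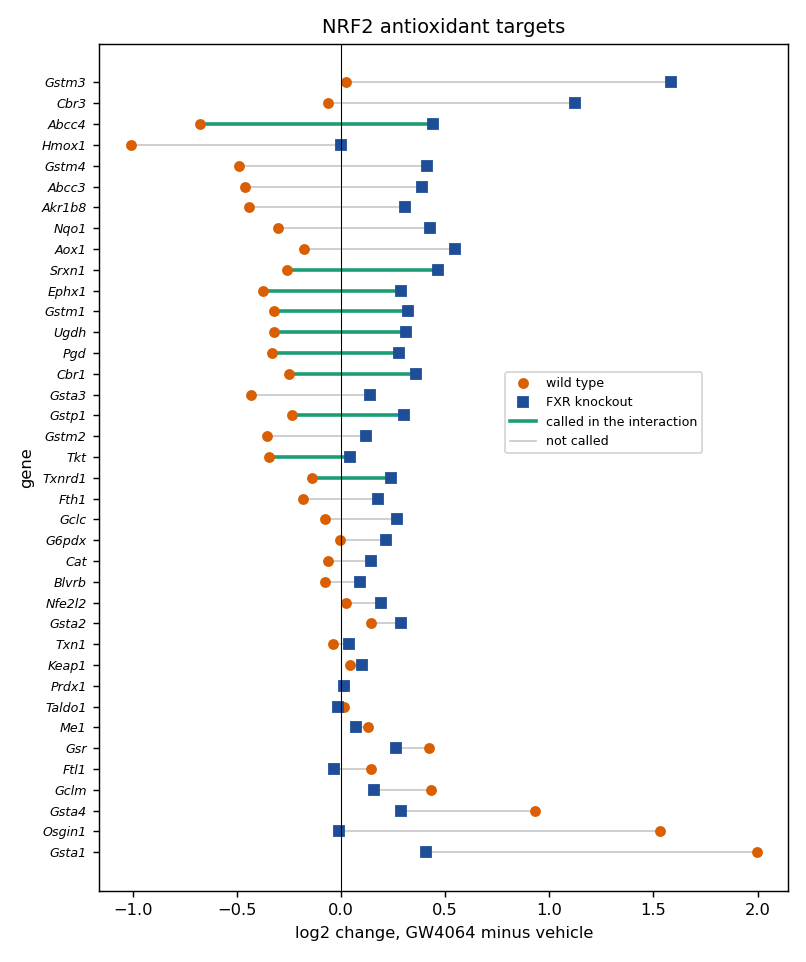
Log2 change with GW4064 in wild type (circles) and in the knockout (squares) for the 38 NRF2 targets tested, joined by a green line where the interaction was called and ordered by the interaction. In the 10 called genes the wild-type circle is left of the knockout square, and a few uncalled members such as Osgin1 have the reverse order.

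Genes of ferroptosis, the iron-dependent lipid peroxidation death in the series title, were tested as lists of suppressors and drivers. Of 35 suppressors tested 1 was higher and 2 lower, and of 33 drivers 1 higher and 2 lower, against 1.72% and 1.47% of all genes, with medians of -0.08 and -0.06. Aifm2 encodes FSP1, which regenerates reduced coenzyme Q at membranes. It measured 25.5, 23.5 and 22.7 TPM in wild-type vehicle and 39.1, 40.9 and 35.5 in wild-type GW4064, against 23.6, 28.3 and 23.9 in knockout vehicle and 22.7, 23.7 and 24.6 in knockout GW4064. Only the wild-type GW4064 libraries stood apart, and the interaction was 0.76 ± 0.11 (limma adjusted p = 0.00484). The lower suppressors were Txnrd1 and the small heat shock protein Hspb1 (-0.74 ± 0.18, a call that ended without any of 11 libraries). Among drivers, Cdo1, the cysteine dioxygenase, was higher (0.90 ± 0.16, adjusted p = 0.0144, and 0.0598 with the fat marker covariate, limma), and Pgd and the glutamine and neutral amino acid carrier Slc1a5 (-0.56 ± 0.08, adjusted p = 0.00492) were lower. Gpx4, the lipid peroxide reductase, had an interaction of -0.08 ± 0.06 (95% interval -0.23 to 0.06, adjusted p = 0.52). Acsl4, which loads polyunsaturated fatty acids for peroxidation, was at -0.40 ± 0.13 (adjusted p = 0.126, limma) and passed without knockout vehicle replicate 2 (adjusted p = 0.00429).

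The genes led by the knockout were 34 higher and 60 lower, 94 in all. Without knockout vehicle replicate 2 or knockout GW4064 replicate 2 there were 151 or 158. Without wild-type vehicle replicates 1 to 3 in turn there were 29, 50 and 27, without wild-type GW4064 replicates 1 to 3 in turn 24, 43 and 53, and 25 when knockout vehicle replicate 1 was removed. Removing knockout GW4064 replicate 3 left 34. Slc16a1, the lactate and ketone body transporter MCT1, measured 22.2, 24.8 and 22 TPM in wild-type vehicle and 22.5, 27.6 and 21.7 in wild-type GW4064, against 111, 90.4 and 102 in knockout vehicle and 180.2, 166 and 163 in knockout GW4064. The wild-type groups overlapped at a level below all knockout libraries, and the interaction was -0.70 ± 0.14 (limma adjusted p = 0.0197). That p was 0.0587 without wild-type GW4064 replicate 1, 0.0541 with the fat marker covariate and 0.0857 without the 2 libraries of lowest score. Trim7, a ubiquitin ligase gene, had the reverse sign, at 86.4 to 99.3 TPM in the wild-type libraries, 70.2, 75.0 and 75.5 in knockout vehicle and 49.5, 52.8 and 49.2 in knockout GW4064 (0.55 ± 0.08, adjusted p = 0.00512). Slc16a1 and Trim7 were the only genes to pass in the knockout alone, Slc16a1 at an adjusted p of 0.0492 (limma). The Trim7 call is given for the main model only. Of 51 fatty acid oxidation genes, 1 was higher (the peroxisomal thioesterase Acot4, 0.72 ± 0.12) and 2 lower (Acox2, -0.62 ± 0.12, among them), against 1.72% and 1.47% of all genes, with a median of -0.10. The Acox2 call ended without wild-type GW4064 replicate 1 or knockout vehicle replicate 1 and with the fat marker covariate (adjusted p = 0.0761, limma).

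Among the knockout-led genes with a negative interaction were 3 short entries that were higher with GW4064 in the knockout, Snora75 (-1.59 ± 0.27), Mir8094 (-1.60 ± 0.33) and Mir365-2 (-1.49 ± 0.23, limma adjusted p = 0.00904, 0.0243 and 0.00566). These tables count fragments of total RNA over the annotated hairpin or small RNA interval, so the values do not measure mature small RNAs. The Mir8094 call ended without any of 3 libraries (adjusted p up to 0.0608) and without the 2 libraries of lowest fat score (0.0749, limma). Snora75 lies inside Ncl and Mir8094 inside Ddx39b, and those host genes had interactions of -0.12 ± 0.08 and -0.09 ± 0.07 that did not pass (adjusted p = 0.43 and 0.51, limma). Snora75 measured 7.86, 10.7 and 9.45 TPM in wild-type vehicle, 6.61, 5.35 and 6.03 in wild-type GW4064, 3.65, 6.29 and 4.83 in knockout vehicle and 8.19, 12.1 and 10.4 in knockout GW4064 libraries, with groups separate in both genotypes.

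The other pathways held few members, and most had medians near that of all genes (-0.05). The lowest medians were those of glucocorticoid-responsive genes (-0.29), immediate early genes (-0.25) and the stress response driven by ATF4 (-0.21). Of 25 cholesterol genes, 4 were higher and 0 lower, against 1.72% and 1.47% of all genes, with a median of 0.01. They were Idi1 (isopentenyl diphosphate isomerase, 0.64 ± 0.10, limma adjusted p = 0.00627), Hmgcs1 (0.28 ± 0.06), Mvd (0.51 ± 0.11) and Acat2 (0.35 ± 0.08), all enzymes on the way from acetyl-CoA to isoprenoid units, and the last 3 lost their calls without any of 6, 8 and 10 libraries and with the fat marker covariate (adjusted p = 0.103, 0.123 and 0.14). Clock genes gave 1 higher and 1 lower of 26 (the lower one was Csnk1e), glucocorticoid-responsive genes 1 and 1 of 25 (Sgk1 and Pck1), growth factor signalling 1 and 1 of 31 (Hbegf and Fgfr1), and xenobiotic enzymes 1 higher of 35 (Ugt3a1). The stress response driven by ATF4 gave 1 lower of 28 (Nupr1, -1.48 ± 0.28, adjusted p = 0.0171, which was lost without wild-type GW4064 replicate 1 or knockout vehicle replicate 1 and, at 0.0631, with the fat marker covariate). Bile acid and organic anion transport gave 2 higher (the Slc51 pair) and 2 lower (Abcc4 and Abcc1, the latter lost without any of 10 libraries) of 18. No member passed among 23 p53 targets, 23 ER folding genes, 27 fatty acid synthesis genes, 26 immediate early genes and 33 cell cycle genes (limma). The cell cycle list nevertheless had a median of 0.58, with 28 of 33 members above 0 and an interaction of 0.96 ± 0.30 for Top2a (adjusted p = 0.11).

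**Figure D5:**
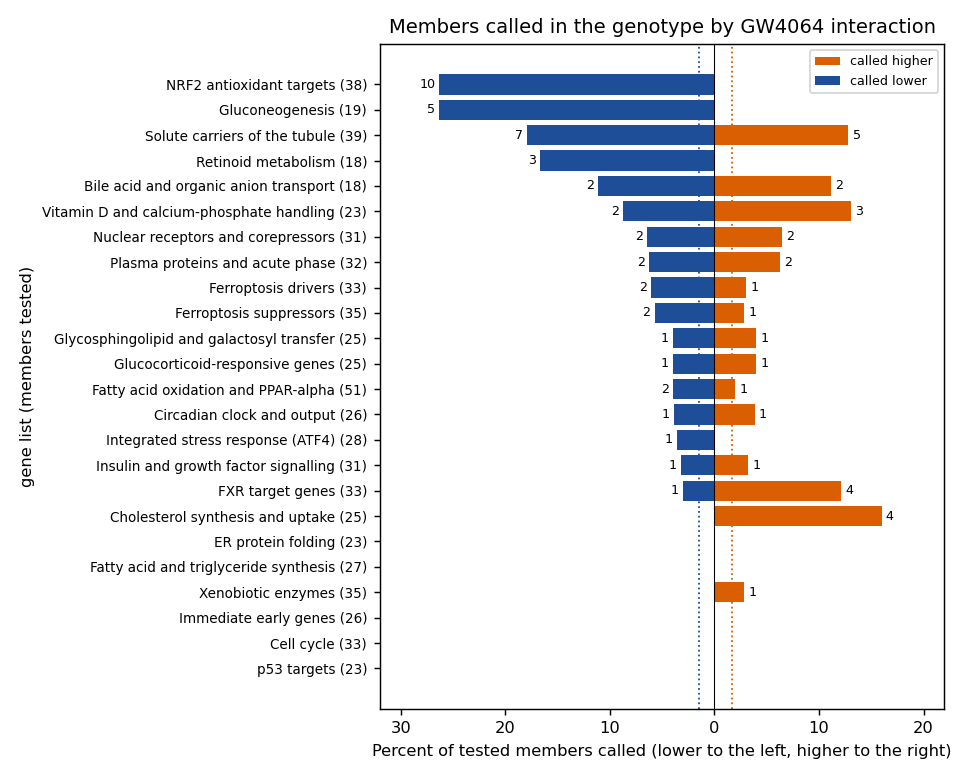
Percent of the tested members of 24 gene lists (number tested in brackets) called in the interaction, lower to the left and higher to the right of 0, with the number of members at each bar. Dotted lines mark the shares over all genes tested, 1.72% higher and 1.47% lower, and NRF2 targets reach 10 of 38 on the lower side.

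Markers of other cell types were read as lists, against 1.72% of all genes called higher, 1.47% called lower and a median of -0.05. Of 16 fat markers, 12 were tested, 0 were called and the median interaction was -0.88 (10 of 12 below 0), with a summed level of 636.06 to 701.98 TPM in wild-type vehicle, 670.01 to 878.64 in wild-type GW4064, 693.99 to 829.54 in knockout vehicle and 738.45 to 827.97 in knockout GW4064 libraries. Of 10 urothelial markers, 7 were tested, 0 were called and all 7 were below 0 (median -1.30), with a summed 44.456 to 49.586 TPM in wild-type vehicle, 22.104 to 25.803 in wild-type GW4064, 20.399 to 42.197 in knockout vehicle and 25.969 to 62.678 in knockout GW4064. Fibroblast and mural markers had a median of -0.28 with 1 of 16 called (Pdgfra, -0.92 ± 0.19), and endothelial markers a median of -0.14 with 1 of 15 called (Plvap, -0.35 ± 0.07). Both calls ended with the fat marker covariate (adjusted p = 0.0807 and 0.0532, limma). Proximal tubule markers had a median of 0.23, with Cubn higher and Pck1 lower of 20. The adrenal genes Cyp11b1 and Cyp11b2 were at 0 in all libraries. In whole kidney, fewer cells of a type and less RNA per cell cannot be told apart. The part of these markers in the gene results was not tested beyond the fat score, which uses only Adipoq, Plin1, Cfd and Cidec.

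Promoter windows were also read for the called genes as a group. A window was found for 11088 tested genes, 196 of the 249 higher and 159 of the 213 lower genes. At least 1 IR-1 match with up to 2 mismatches was held by 137 of the 11088 (1.24%), 6 of the 196 higher (3.06%) and 2 of the 159 lower genes (1.26%). With up to 1 mismatch it was 7 of the 11088, 0 of the 196 and 1 of the 159 (Rarg). The hexamer AGGTCA alone, on either strand, was in 15.3%, 19.9% and 17.0%. Windows per gene averaged 1.27, 1.39 and 1.48 in the same order, so these shares are not strictly like for like. The higher genes with a match at up to 2 mismatches were Tlcd4, Papss2, Ncoa7, Hes6, Slc34a3 and Cubn, and the lower ones Itga3 and Rarg, all named because of the match. Of the 39 higher genes with an interaction of at least 1 that had a window, 1 held a match. That gene was Tlcd4, a TLC-domain membrane protein gene, at 22.2, 22.6 and 21.3 TPM in wild-type vehicle, 52.2, 47.7 and 46.6 in wild-type GW4064 and 20.5 to 23.9 in the knockout libraries (interaction 1.01 ± 0.08, limma adjusted p = 1.05e-04). Tlcd4 and Papss2 are shown for this match, which stands in capitals, at chr3:121263118-121263417 (minus strand) and chr19:32619755-32620054 (plus strand) (RefSeq, GRCm38.p6; each gene has 2 windows listed).
Tlcd4: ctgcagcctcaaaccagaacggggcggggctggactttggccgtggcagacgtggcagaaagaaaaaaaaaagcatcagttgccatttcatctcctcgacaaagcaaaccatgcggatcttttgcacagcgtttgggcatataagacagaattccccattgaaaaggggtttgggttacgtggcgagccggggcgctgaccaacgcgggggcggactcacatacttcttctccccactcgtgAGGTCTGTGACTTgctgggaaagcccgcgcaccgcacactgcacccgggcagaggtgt
Papss2: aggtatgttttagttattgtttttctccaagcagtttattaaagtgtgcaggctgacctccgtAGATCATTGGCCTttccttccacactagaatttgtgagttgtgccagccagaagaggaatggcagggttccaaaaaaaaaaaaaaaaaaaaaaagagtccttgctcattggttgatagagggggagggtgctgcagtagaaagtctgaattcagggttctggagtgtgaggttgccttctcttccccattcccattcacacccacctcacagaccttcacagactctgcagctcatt
The match begins 8 bases before the start used for the Tlcd4 window and 187 bases before that used for the Papss2 window. The Papss2 window lies inside the gene, whose listed span on chromosome 19 begins at base 32595715. A match describes letters in a window and is not a measured binding site.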

How the data were processed

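Total RNA of mouse kidney was sequenced in 12 libraries with a stranded total RNA kit, per the labels' protocols. HISAT2, StringTie and Cufflinks on mm10 are named in the submitters' processing notes, with no version, role or annotation. The authors deposited 1 table per library with coverage, FPKM and TPM per gene. The deposited TPM values sum to 1000000 per library and were analysed. The deposited FPKM values, a constant multiple of TPM in a library, served as an alternative, and the deposited coverage signal served for depth only (2.86 to 4.27 mapped gigabases). No read counts were used, and no library was left out.

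Rows of 1 gene identifier were summed, and a gene was kept if 3 or more libraries reached 1 TPM. On log2(TPM + 0.5), a linear model with 4 group means was fitted in R 4.3.3 with limma 3.58.1 (moderated variances following the mean level), with Benjamini-Hochberg adjustment over 14488 genes and calls at an adjusted p under 0.05. The pseudocount draws changes of low genes toward 0. Errors are SD for TPM and SE for log2 changes, and intervals are 95%. An exact permutation test of 3 against 3 libraries cannot go below 0.1. The interaction was also run on simulated data over 14488 genes, with independent normal noise per gene and changes put into wild-type GW4064 only. There, 39.1%, 69.3% and 91.2% of changes of 0.5, 1 and 2 (log2) were recovered, with 4.62% false calls. Variation shared by genes within a library was not simulated, so 4.62% is not the false call rate of the real data. Tables used Python 3.11.15, pandas 2.3.3 and numpy 2.4.6, and figures matplotlib 3.10.9.

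The members and the 36 gene lists were chosen with earlier results of these data known. Genes to be named were 9 fixed genes, in each direction the 12 called genes of largest interaction and up to 12 opposite-direction and 8 knockout-led genes (at least 5 TPM in a group mean, no gene-model symbols), and, per list, called members up to 6 or otherwise the 2 of lowest p. Gm5424, Papss2, Tlcd4, Ncoa7, Hes6, Itga3, Osgin1, Trim7, Ncl, Ddx39b, and list members beyond 6 were picked with their values in view, as were the promoters of Tlcd4 and Papss2. The text leaves out part of what the rule names, and some called list members are counted but not reported here by name. Alternatives covered pseudocounts, filters, scalings, FPKM, variance models, sample weights, a block, protein-coding genes, the fat marker score as a covariate and leaving out each library, and, chosen after seeing the data, leaving out the 2 libraries of lowest fat score.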

Additional observations from a re-analysis of the deposited data

Results flagged for a closer look

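The change with GW4064 differed between wild type and knockout, by the interaction test itself (limma), in 31 of the 111 named genes under each of the alternatives run and without any single library, and in Zdhhc19, which is left out here because it passed the filter on low values through wild-type GW4064 alone. The naming rule favoured called genes (82 of the 111 were called), and some were picked with their values in view. The 31 of 111 is therefore not a share over all genes. Values for the 31 genes are the interaction on the log2 scale. Among genes of bile acid export, membranes and glycolipids these were Slc51a (3.83), Slc51b (3.05), Tm4sf4 (4.01), B4galt5 (2.39), Tlcd4 (1.01), Misp3 (1.84). Solute carriers, enzymes and the Gm5424 entry were Slc13a1 (1.49), Papss2 (0.68), Tstd2 (1.99), Slc6a13 (0.81), Slc5a1 (0.53), Gm5424 (1.44), Acot4 (0.72), Idi1 (0.64). Regulators, plasma proteins and the ferroptosis suppressor FSP1 were Nr1i2 (1.47), Ncoa7 (0.67), Fgb (2.12), C3 (1.69), Aifm2 (0.76). The lower genes were Cyp26b1 (-2.35), Slc25a25 (-1.89), Slc38a3 (-1.31), Wsb1 (-1.29), Slc1a5 (-0.56), the short entries Snora75 (-1.59), Mir365-2 (-1.49), and the NRF2 targets Abcc4 (-1.12), Srxn1 (-0.72), Gstm1 (-0.64), Ugdh (-0.63), Gstp1 (-0.54). Among the last group all 5 were negative in wild type and positive in the knockout, and 0 passed in the knockout alone after adjustment.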

How the results depend on the processing

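The counts of called, opposite-direction and knockout-led genes were 462, 204 and 94. Adding the fat marker score to the model gave 207, 87 and 23, and without the 2 libraries of lowest score the first 2 were 274 and 133. The knockout-led count was 59 with no filter on low values and 60 without the variance trend. Leaving out single libraries gave 220 to 535 called, 74 to 266 opposite-direction and 24 to 158 knockout-led genes. The cause of these shifts was not tested. Fewer libraries and a covariate also leave fewer residual degrees of freedom, and the fat marker score was not balanced over the groups. With the replicate number as a block the counts were 442, 200 and 79. Same-numbered libraries of different groups did not deviate together (r of -0.07 to 0.08 over 18 pairs), so the numbers were not taken to pair them. The other alternatives kept all 3 counts within 1.5 times. Higher genes made up 53.9% of the called with TPM, 71.0% with median-of-ratios and 63.2% with quantile scaling, 60.4% with FPKM and 45.1% with protein-coding genes only, while the scalings moved the median of all genes by 0.05. Signs turned for 2 of the named genes: Star without the 2 libraries of lowest fat score (0.012) and Nr0b2, which ran from -0.16 to 0.25 when single libraries were left out and was below 0 in 3 of these cases. The depth behind a TPM value is not known per gene, and 39.1% recovery at a log2 size of 0.5 limits what small differences can be seen.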
